A study of Rattus norvegicus with 8 samples.

Results

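The nuclei described here are those of the rat nodose ganglion with at least 1 transcript of Chrm2, at least 1 of Itgae or Gpr65, and none of Ntsr1 or Cyp26b1. They numbered 1093 of the 36740 nuclei kept (2.97%). Transcripts were counted as UMIs (unique molecular identifiers, which mark single captured RNA molecules). These 5 genes chose the members, so their levels between members and other nuclei are a description with no test. Between sides and sexes, those with enough counts were tested within members or within whole clusters. The ganglia came from experimentally naive Long Evans rats aged 8 weeks, 18 male and 18 female, with left and right ganglia kept apart. A pool joined the ganglia of 1 side from 6 rats, and there were 3 such pools for each sex on each side. Pools are written ML1 to ML3 (male-labelled, left), MR1 to MR3 (male-labelled, right), FL1 to FL3 (female-labelled, left) and FR1 to FR3 (female-labelled, right). With 18 rats of each sex, and 3 pools of 6 rats on each side, left and right pools of a sex drew on the same rats. Which left and right pools share rats is not given. Tests by sex counted left and right pools as separate replicates, which limits their p-values. Pools ML1 and FL1 go against their sex labels: in members the Y-linked genes summed to 3.81 CPM (UMIs of a gene scaled to a common total per pool) in ML1, against 55.7 to 108 in other male-labelled pools, and to 83.1 in FL1, against 1.88 to 6.98 in other female-labelled pools.

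The nodose ganglion holds the cell bodies of vagal sensory neurons, which carry signals from the heart, airways and gut to the brainstem. Chrm2 encodes the M2 muscarinic acetylcholine receptor, which signals through inhibitory G proteins. Gpr65 encodes a receptor that responds to extracellular acid and signals through stimulatory G proteins. Itgae encodes integrin alpha E, best known from T cells in epithelia, where it pairs with integrin beta 7 and binds E-cadherin. Kcnh8 is a further marker given for these neurons that the rule did not use, and encodes a voltage-gated potassium channel of the ether-a-go-go family. Ntsr1 encodes a neurotensin receptor and Cyp26b1 an enzyme that degrades retinoic acid.

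The promoters of Chrm2, Itgae, Gpr65 and Kcnh8 are shown because these 4 genes chose or mark the members and were together among the leading genes of neuron cluster A, described below. Each is the RefSeq sequence of the GRCr8 assembly from 250 bases before to 50 bases after the gene's start, read 5' to 3'. The counts were made on another assembly, mRatBN7.2, and the coordinates belong to GRCr8 alone. Capitals mark the homeodomain core TAATTA and the E-box CANNTG, which both read the same on both strands.
Chrm2 promoter, chr4:65982200-65982499, plus strand: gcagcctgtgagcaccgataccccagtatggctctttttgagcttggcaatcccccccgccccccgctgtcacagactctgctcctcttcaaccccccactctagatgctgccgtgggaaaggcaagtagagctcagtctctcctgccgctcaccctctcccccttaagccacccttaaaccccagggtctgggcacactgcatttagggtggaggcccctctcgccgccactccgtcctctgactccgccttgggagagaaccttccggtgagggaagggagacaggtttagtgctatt
Itgae promoter, chr10:58203118-58203417, plus strand: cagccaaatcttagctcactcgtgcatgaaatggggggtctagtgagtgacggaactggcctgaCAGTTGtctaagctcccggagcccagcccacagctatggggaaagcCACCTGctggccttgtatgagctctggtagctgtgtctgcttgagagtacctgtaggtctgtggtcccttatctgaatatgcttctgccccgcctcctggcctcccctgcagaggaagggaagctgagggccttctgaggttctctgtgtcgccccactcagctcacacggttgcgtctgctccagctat
Gpr65 promoter, chr6:123254504-123254803, plus strand: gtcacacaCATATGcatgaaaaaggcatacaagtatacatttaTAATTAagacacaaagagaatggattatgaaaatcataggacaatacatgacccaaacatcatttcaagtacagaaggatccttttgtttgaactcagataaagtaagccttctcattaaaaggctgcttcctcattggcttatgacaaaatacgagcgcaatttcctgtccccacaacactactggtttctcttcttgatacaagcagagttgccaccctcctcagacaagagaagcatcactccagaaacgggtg
Kcnh8 promoter, chr9:5742433-5742732, plus strand: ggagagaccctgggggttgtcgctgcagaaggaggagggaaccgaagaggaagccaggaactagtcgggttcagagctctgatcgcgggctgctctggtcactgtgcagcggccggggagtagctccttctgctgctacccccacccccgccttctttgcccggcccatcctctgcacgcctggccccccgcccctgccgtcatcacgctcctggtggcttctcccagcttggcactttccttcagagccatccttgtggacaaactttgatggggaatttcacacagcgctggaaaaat
Among 33469 RefSeq promoters of this length, 5.36% held TAATTA and 72.1% held CANNTG. Gpr65 held 1 match of each and Itgae held 2 of CANNTG. Neither motif was found in the windows of Chrm2 and Kcnh8. A match is a description of the letters, not a binding site.

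The members were not a single neuron type. All nuclei were clustered on their expression, and the neurons were then clustered again without the 5 genes of the rule. Of the 1093 members, 944 (86.4%) lay in neuron clusters, 111 in satellite glia clusters, 10 in the myelinating Schwann cluster, 10 in a skeletal muscle cluster and 18 in a cluster with no name. Among the 42 neuron clusters, cluster A held 375 members, which were 22.8% of its 1648 nuclei. Cluster B, which also had Ntsr1 and Cyp26b1 among its leading genes, held 183 members, or 15.8% of its 1159 nuclei. Both clusters together held 558 members (51.1%). The other 535 members (48.9%) lay elsewhere, 386 of them in other neuron clusters, where a median of 1.39% of a cluster's nuclei were members. Clusters A and B were picked as the neuron clusters that held the most members. Chrm2, Itgae and Gpr65 had no part in the second clustering. All 3 were among the 10 genes with the largest fold in clusters A and B, but picking the clusters by their members favours these genes.

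**Figure D1:**
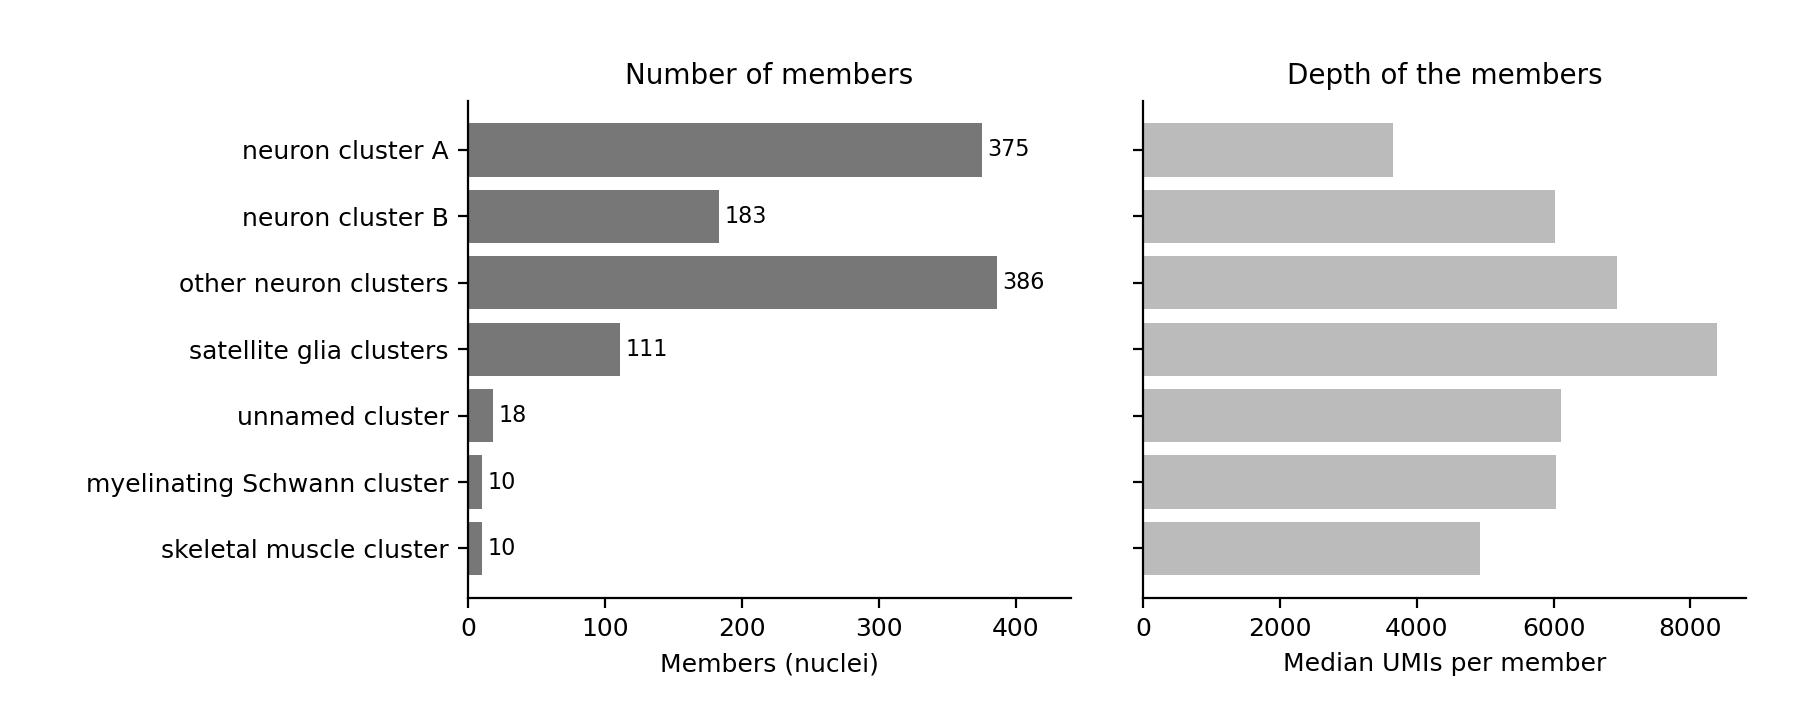
Members by the cluster that held them. The left panel gives the number of nuclei (bars) and the right panel the median UMIs per member. Cluster A held 375 members and other neuron clusters 386, and the 111 members in satellite glia clusters had the highest median depth, 8395 UMIs.

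Depth and glial transcripts differed between these places. The median was 4281 UMIs in members of clusters A and B and 7065 in members elsewhere, against 2951 in the remaining 26251 neurons and 2096 in satellite glia. The summed level of 6 satellite glia markers was 760 ± 256 CPM (SD, n = 12 pools; range 336 to 1165) in members elsewhere. In members of clusters A and B the same sum was 60.0 ± 31.6 CPM (26.1 to 114), below every pool of the former. Apoe, which encodes an apolipoprotein made by satellite glia, stood at 500 ± 161 CPM in members elsewhere, at 28.7 ± 15.6 in members of clusters A and B, and at 1364 ± 175 in satellite glia. The part of depth and of RNA from other cells in the choice of these members was not tested.

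Markers of T cells were nearly absent, although Itgae is a T cell gene. The 8 T or NK cell markers summed to 5.62 ± 3.36 CPM in members (range 0 to 10.9), and Cd8a and Nkg7 were at 0. Itgb7, the integrin beta chain that pairs with Itgae in T cells, stood at 0.345 ± 0.806 CPM in members and at 0 in those of clusters A and B. The 8 neuron markers summed to 7286 ± 702 CPM in members of clusters A and B and to 8127 ± 557 in neurons outside both clusters. The same sum was 8011 ± 664 CPM in satellite glia and 3188 ± 422 in myelinating Schwann nuclei. It thus did not set these members apart from satellite glia. Prdm12, which marks jugular neurons, stood at 0.330 ± 1.14 CPM in members of clusters A and B and at 11.9 ± 8.63 in neurons outside. The 5 jugular markers summed to 68.4 ± 26.8 CPM in these members and to 205 ± 68.8 in neurons outside. The 6 nodose markers summed to 708 ± 137 CPM in these members, 839 ± 69.8 in neurons outside and 740 ± 81.0 in satellite glia. Phox2a, a nodose marker, was at 0 in these members.

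The rule sat close to single transcripts. Exactly 1 UMI of Chrm2 was counted in 500 members, and 573 members had 1 UMI of Itgae and Gpr65 together. The highest count of Chrm2 in a member was 25. Of the 306 members just inside the rule, with 1 UMI of Chrm2 and 1 of the pair, 25.8% lay in clusters A or B and 18.3% in satellite glia clusters. Of the 326 members with 2 or more of each, 75.2% lay in clusters A or B and 3.07% in satellite glia clusters. Just outside the rule, 2600 nuclei had Chrm2 without the pair (9.19% in clusters A or B) and 4114 had the pair without Chrm2 (17.4%). A further 282 nuclei failed only by 1 UMI of Ntsr1 or Cyp26b1, and 70.9% of these lay in clusters A or B. Nuclei removed by the exclusion thus lay in these clusters at a share above the 51.1% of the members.

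Itgae alone was found in 499 members, Gpr65 alone in 341 and both in 253. Clusters A and B held 31.3% of the Itgae-only members, 62.2% of the Gpr65-only members and 75.1% of those with both. Satellite glia clusters held 7.92% of the Gpr65-only members and 3.56% of those with both, and their share was highest in the Itgae-only members. Kcnh8, which the rule did not use, stood at 421 CPM in the Itgae-only members, 788 in the Gpr65-only members and 903 in those with both. Piezo2 ran the other way, at 442, 151 and 144 CPM.

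Levels of the 3 rule genes were compared between members of clusters A and B, the other nuclei of cluster A and neurons outside both clusters. The rule and the clusters together set their order. Chrm2 stood at 578 ± 81.4 CPM there (lowest pool 481, median 554, highest 719), at 225 ± 67.6 in cluster A nuclei that were not members and at 48.0 ± 11.6 in neurons outside both clusters. Itgae stood at 432 ± 123 CPM in members of clusters A and B (270, 418, 686), at 391 ± 99.3 in the other nuclei of cluster A and at 44.9 ± 6.32 in neurons outside. Gpr65 stood at 241 ± 40.4 CPM (181, 245, 298), 135 ± 35.9 and 23.0 ± 3.93 in the same 3 groups. For all 3 genes every pool's value in nuclei of cluster A that were not members exceeded every pool's value in neurons outside. Those neurons are a mixture of clusters, some of which stood well above its mean. Over all pools together, the highest Chrm2 outside was 854 CPM in a cluster of 32 nuclei led by Slc6a2. The next was 314 CPM in a cluster of 566 nuclei led by Tafa1. The highest Itgae (124 CPM) and Gpr65 (106 CPM) outside were in a cluster of 929 nuclei led by Cysltr2. The rule left out 1273 nuclei of cluster A, of which 27.6% had a UMI of Chrm2 at a median of 2445 UMIs per nucleus.

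Kcnh8 was not used by the rule, but it took part in the clustering that drew clusters A and B, so its level there is a description. It stood at 1176 ± 124 CPM in members of clusters A and B (lowest pool 991, median 1141, highest 1391) and at 1215 ± 140 in cluster A nuclei that were not members (928, 1238, 1386). In members elsewhere it stood at 338 ± 61.4 CPM (198, 354, 428), and in neurons outside both clusters at 223 ± 16.8 (198, 222, 253). The pools of the first 2 groups overlapped each other and lay above all pools of the last 2. Satellite glia also had 311 ± 21.1 CPM of Kcnh8 and myelinating Schwann nuclei 783 ± 90.9.

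**Figure D2:**
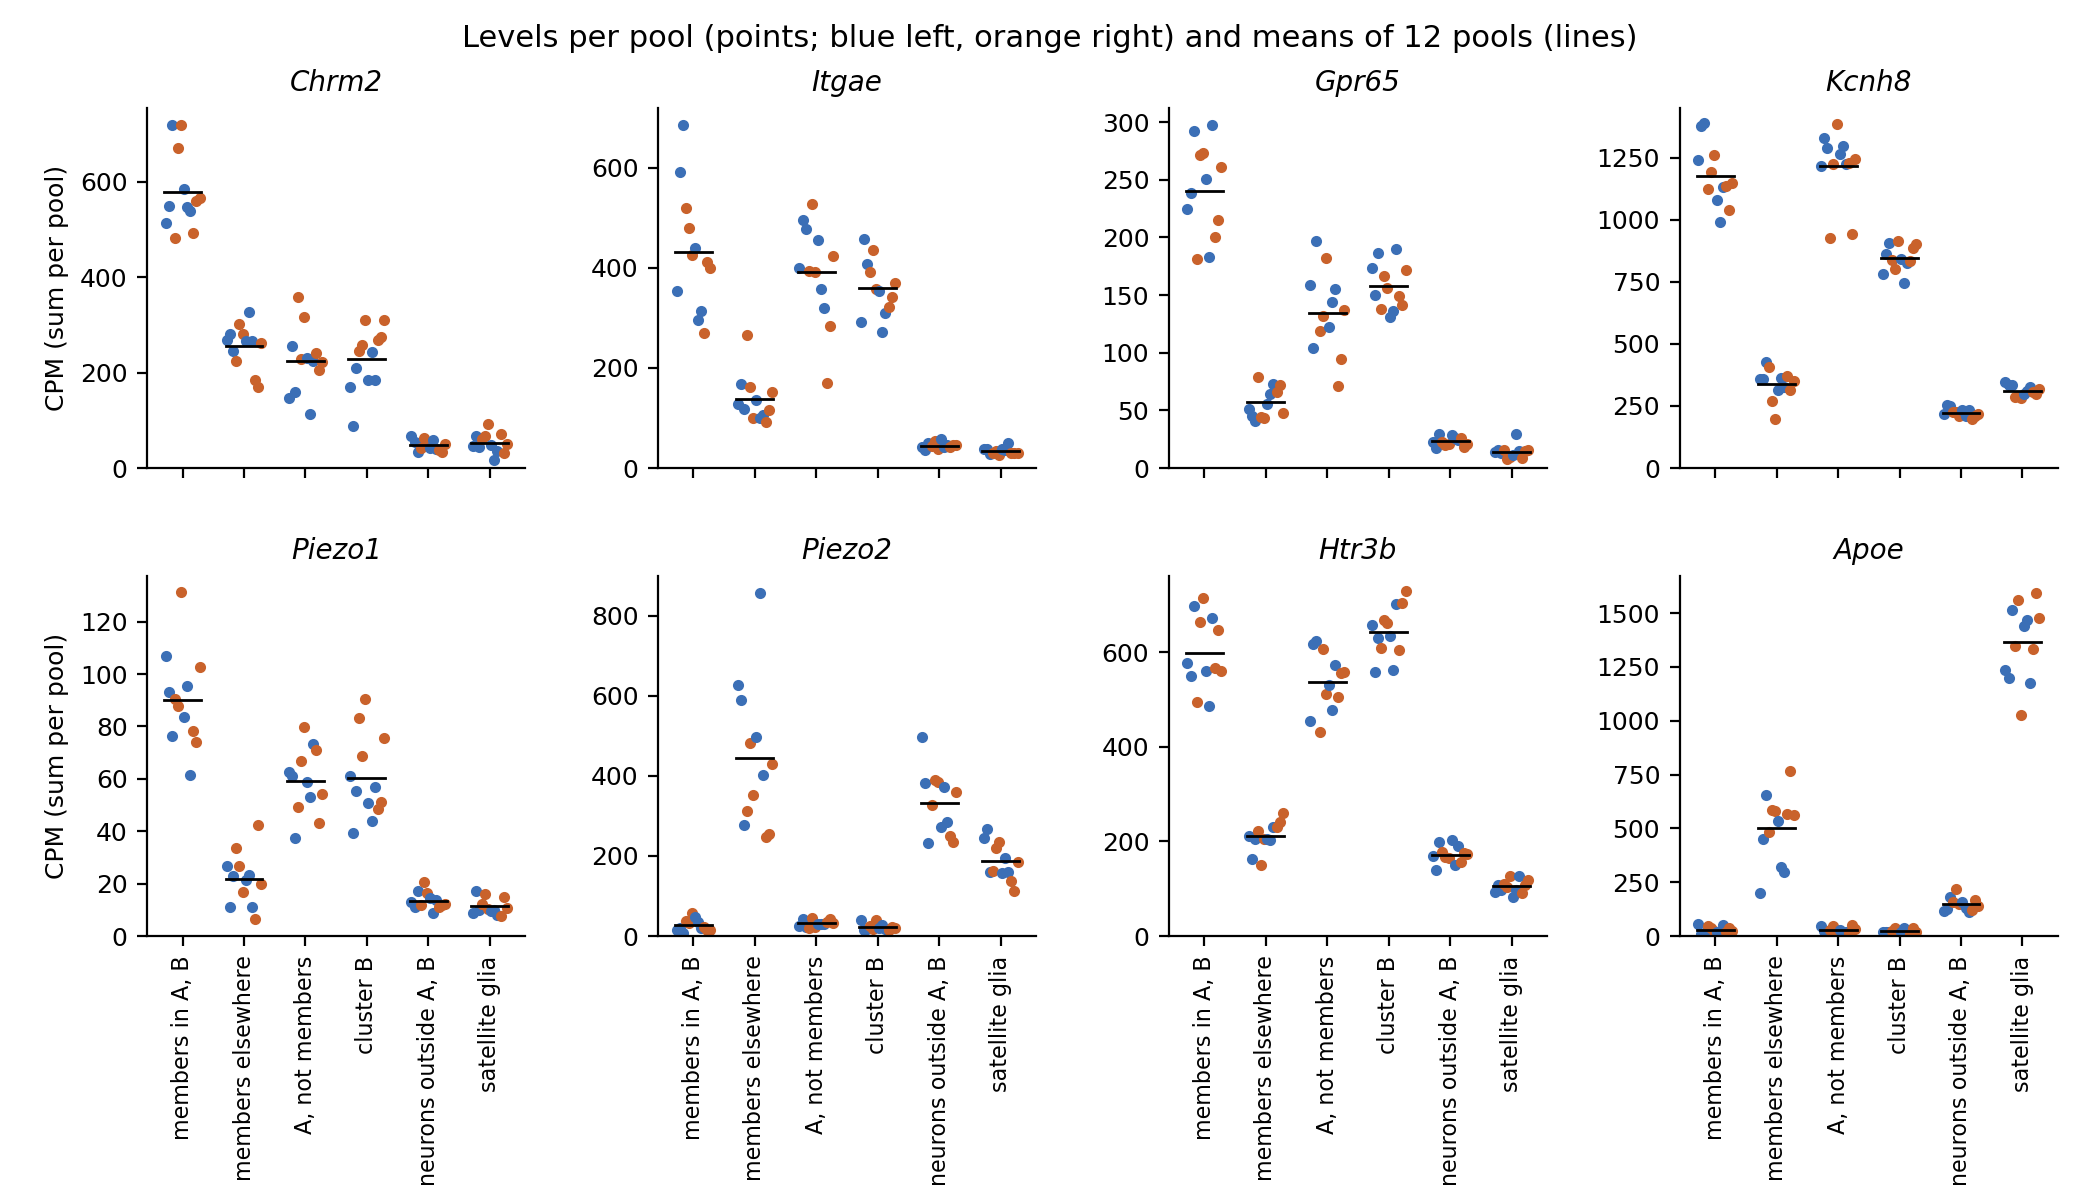
Level of 8 genes in 6 groups of nuclei, as CPM of the UMIs summed per pool (points, 12 pools; blue left, orange right; lines, means). Kcnh8 has a mean of 1215 in cluster A nuclei that are not members and 223 in neurons outside clusters A and B, and Piezo2 has 27.2 in members of both clusters against 444 in members elsewhere.

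To compare shares of nuclei with a transcript at equal depth, each nucleus was thinned to 2000 UMIs, and shallower nuclei were left out (88 members). Kcnh8 was then found in 84.6% of members in clusters A and B (exact 95% interval 81.2 to 87.6%), in 87.0% of the other nuclei of cluster A, in 41.4% of members elsewhere and in 26.1% of neurons outside. Satellite glia gave 42.6% and myelinating Schwann nuclei 72.5%. Gpr65 was found in 41.6% of members in clusters A and B, in 22.0% of the other nuclei of cluster A, in 3.18% of neurons outside and in 2.37% of satellite glia. Unthinned, Kcnh8 was found in 81.9% of all members, at a median of 5280 UMIs, and in 38.9% of the remaining neurons, at a median of 2951. Intervals cover counting error only.

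**Figure D3:**
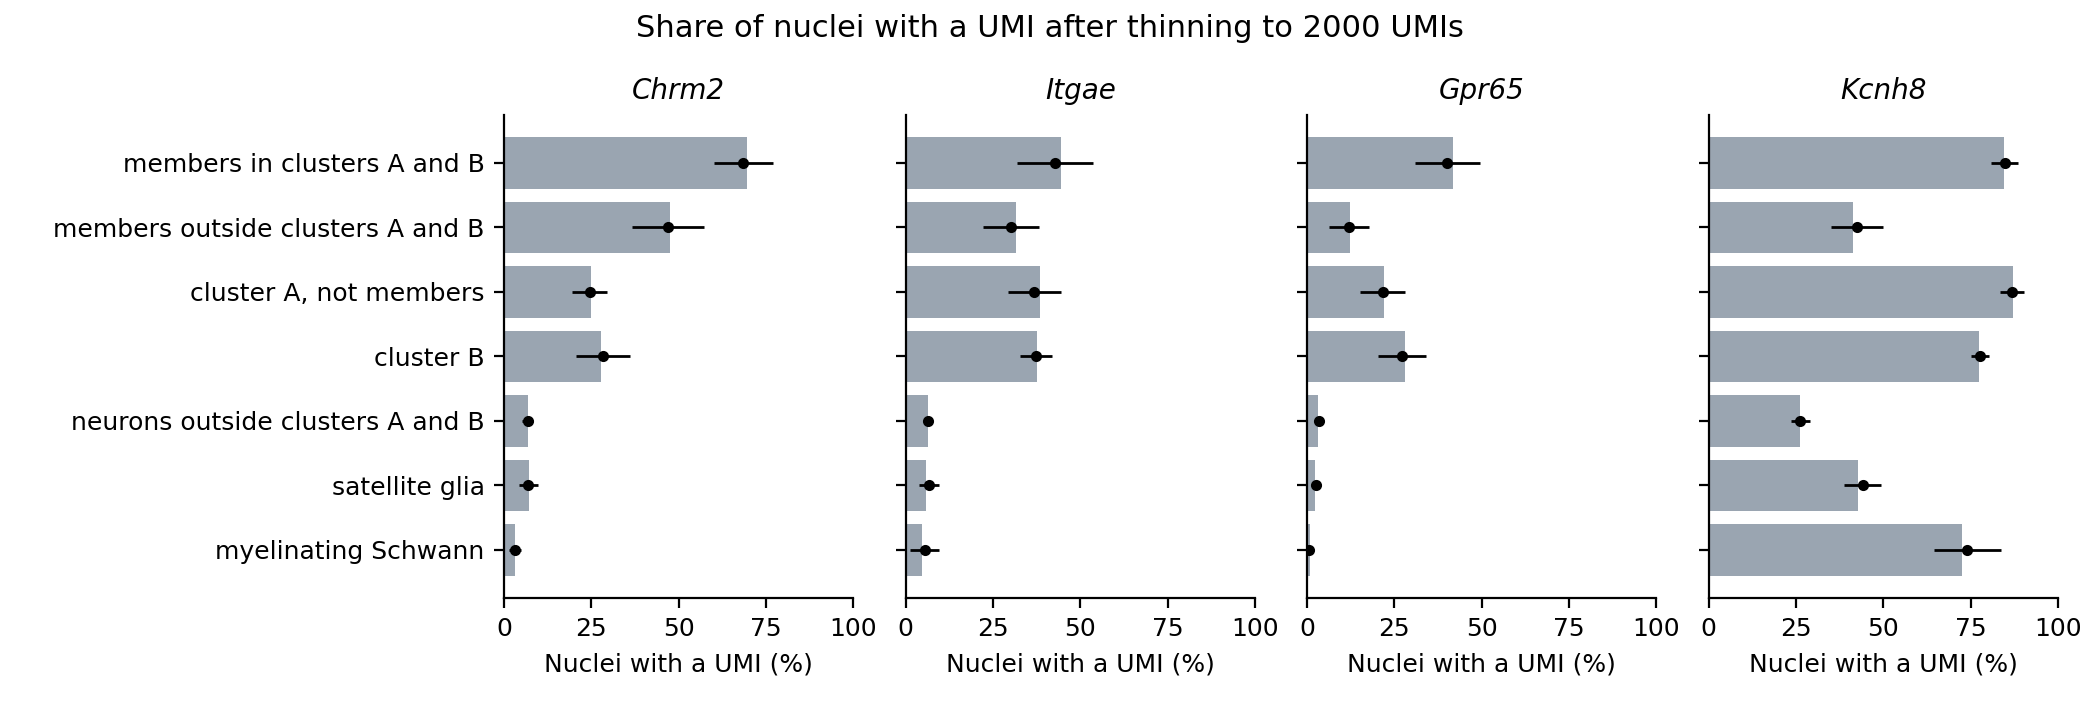
Share of nuclei with a UMI of each gene after thinning to 2000 UMIs (bars, all nuclei; points and lines, mean and SD over 12 pools). Kcnh8 reaches 87.0% in cluster A nuclei that are not members, and 72.5% in myelinating Schwann nuclei, where Gpr65 is found in 0.798%.

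Few genes separated the members from the remaining neurons. On the log2(CPM + 5) scale, 16 of 11094 genes (0.144%) were at least 2-fold higher by the mean with all 12 pools in that direction, and 28 (0.252%) were lower. The members here include the 149 nuclei outside neuron clusters, while the comparison holds neurons alone. With members in neuron clusters only, 13 of 10974 genes (0.118%) were higher and 42 (0.383%) lower. These differences are descriptions, since the rule chose the members by counts in the same nuclei. Kcnh8 was higher by 1.12 ± 0.19 (SD, n = 12) and Piezo1, a mechanically gated channel, by 1.22 ± 0.38. Genes high in satellite glia were also among them: Apoe was higher by 1.20 ± 0.33, Sparc by 1.14 ± 0.33 and Kcnj10 by 1.01 ± 0.47. Satellite glia had 1364 CPM of Apoe, 922 of Sparc and 174 of Kcnj10, against 320, 240 and 42.5 in members. The part of glial RNA in these differences was not tested. With the rule's genes left out, genes at 10 CPM or more in every pool of the remaining neurons were ranked. Those furthest below the remaining neurons were Nxph1 (-1.69 ± 0.71), Crhr2 (-1.53 ± 0.50) and Kirrel3 (-1.51 ± 0.38). The potassium channel gene Kcnq3 was also lower (-1.45 ± 0.22).

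Members of clusters A and B stood further from other neurons. Against neurons outside both clusters, 79 of 11039 genes (0.716%) were higher by the same measure and 568 (5.15%) lower. The genes of the rule are not among these counts. Clusters were drawn from the expression of these same nuclei, which favours genes that differ between clusters. These counts, and the levels in both clusters given below, are therefore descriptions. Counts from gene lists below are to be read beside the shares of 0.716% higher and 5.15% lower over all genes. The other genes were ranked if they had a unique symbol and 10 CPM or more in every pool of the higher group. Of these, the highest were Kcnh8 (2.37 ± 0.12) and Piezo1 (2.36 ± 0.36), followed by the ephrin receptor Epha7 (2.13 ± 0.15, from 300 ± 44.3 against 64.3 ± 5.47 CPM). Cachd1, Kcnh8 and Piezo1 were the 3 genes among the 20 highest in both comparisons. Other high genes were the cadherin Cdh4 (1917 ± 274 against 489 ± 36.1 CPM), the background potassium channel Kcnk18 (40.3 ± 11.4 against 6.57 ± 2.03) and the receptor kinase Alk (2042 ± 231 against 606 ± 62.1). The lowest were Egfem1 (5.71 ± 5.62 against 148 ± 31.9 CPM), Edil3 (4.97 ± 5.66 against 117 ± 23.9), Brinp3 (6.52 ± 5.75 against 114 ± 18.9) and Piezo2.

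The 2 mechanically gated Piezo channels ran in opposite directions. Piezo1 stood at 90.2 ± 18.2 CPM in members of clusters A and B (lowest pool 61.6, median 89.2, highest 131) and at 13.5 ± 3.26 in neurons outside (8.87, 12.5, 20.8). Piezo2 stood at 27.2 ± 15.1 CPM in the same members (6.35, 21.2, 57.7) and at 332 ± 80.0 in neurons outside (232, 344, 497). The groups did not overlap for either gene. Over all members Piezo2 stood at 293 ± 127 against 295 ± 73.9 CPM in the remaining neurons, and in members elsewhere at 444 ± 181. Of the 4 measured genes of the mechanosensitive list, Tmem63b and Tmem63c were under 2-fold apart. The median of this list was -0.09, beside -0.18 over all genes.

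Of 2 measured muscarinic receptors besides Chrm2, Chrm3 was lower in members of clusters A and B than outside (3.49 ± 5.09 against 40.7 ± 19.8 CPM) and Chrm4 was under 2-fold apart. Of 7 measured nicotinic subunits, 4 were lower and none higher: Chrna3, Chrna6, Chrnb3 and Chrnb4. Of 7 measured genes for inhibitory G proteins and the potassium channels that M2 receptors open, Kcnj3 (18.7 ± 7.55 against 160 ± 16.1 CPM) and Kcnj6 (4.11 ± 4.00 against 25.4 ± 7.05) were lower. Gnai2, an inhibitory alpha subunit, stood at 107 ± 33.4 against 95.4 ± 10.8 CPM. The medians of the 3 lists were -1.54, -1.40 and -0.28, beside -0.18 over all genes.

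Of 8 measured acid-sensing channels, 5 were lower in members of clusters A and B than in neurons outside and none was higher. Asic2, a proton-gated sodium channel, stood at 486 ± 226 against 2978 ± 322 CPM, and Trpv1, the capsaicin receptor, at 31.6 ± 11.4 against 89.2 ± 8.71. The median of the channels was -1.74. Of 9 measured genes for stimulatory G proteins and adenylyl cyclases, through which Gpr65 signals, Adcy7 and Adcy8 were lower and none was higher, and the median of the list was 0.27 beside -0.18 over all genes. Gnas was left out of that list because 2 entries share its symbol.

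Both subunits of the serotonin-gated channel were higher in members of clusters A and B. By the same measure over all nuclei of cluster A, Htr3b passed and Htr3a did not. Htr3b stood at 599 ± 77.2 CPM in members of clusters A and B (lowest pool 487, median 572, highest 714) and at 172 ± 18.9 outside (139, 171, 203). Htr3a, the subunit with which it forms a channel, stood at 215 ± 38.0 (167, 208, 291) against 102 ± 19.1 CPM (67.1, 102, 143). The groups did not overlap for either gene. Of the 8 measured gut hormone, feeding and serotonin receptors 4 were lower: Glp1r, Cckar, Sctr and Htr4. The median of this list was -0.88, beside -0.18 over all genes, of which 0.716% were higher and 5.15% lower. Glp1r, the receptor of a satiety hormone, stood at 5.43 ± 8.06 against 34.5 ± 7.49 CPM.

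Of 12 measured integrins and partners, Itga2 was higher in members of clusters A and B, and Itgb8, Itga3, Itgav and Cdh1, which encodes E-cadherin, were lower. Over all members Itgav stood at 129 ± 45.3 against 59.1 ± 11.1 CPM in the remaining neurons, the opposite direction. Itgav was abundant in satellite glia (510 ± 41.6 CPM). Of 7 measured genes of the ether-a-go-go family, Kcnh8 was higher, Kcnh5 lower and 5 under 2-fold apart or not in every pool. The list medians were -0.65 for integrins and partners and 0.05 for the ether-a-go-go family. Over all genes the median was -0.18, with 0.716% higher and 5.15% lower.

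Of 14 measured genes of other vagal neuron types 10 were lower and none higher, among them Tafa4, Trpa1, Xylt1 and Nxph1. Trpa1, an irritant-gated channel, stood at 60.2 ± 31.4 against 373 ± 36.2 CPM. Of 6 measured neuropeptides and glutamate transporters 4 were lower (Calca, Tac1, Adcyap1 and Slc17a7), and Slc17a6, the vesicular glutamate transporter of vagal neurons, stood at 251 ± 34.8 against 253 ± 23.7 CPM. Ntrk3 and Gfra3 were among the lower of 7 measured neurotrophin and GDNF receptors, and Scn1a among the lower of 8 sodium channels. Scn10a stood at 1220 ± 79.4 against 1159 ± 80.3 CPM. None of 6 measured purinergic receptors passed in either direction, and P2rx3 stood at 271 ± 64.5 against 263 ± 21.1 CPM. The list medians were -1.91 for other vagal neuron types and -1.69 for neuropeptides and glutamate transporters. They were 0.08 for neurotrophin and GDNF receptors, -0.13 for sodium channels and -0.25 for purinergic receptors. Over all genes the median was -0.18, with 0.716% higher and 5.15% lower.

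Neurons with both Ntsr1 and Cyp26b1, counted as the most similar other population, numbered 182. Kcnh8 stood at 793 ± 94.2 CPM in them, Piezo1 at 76.3 ± 28.2, Htr3b at 554 ± 125 and Piezo2 at 32.3 ± 24.7. Chrm2 stood at 212 ± 107 and Itgae at 244 ± 96.6 CPM. Both populations were chosen by counts, so these levels were not tested between them. The side difference was tested between members and these neurons, and edgeR called 0 of 6519 genes, where 248 had an unadjusted p under 0.05.

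The share of neurons that were members was not shown to differ between sides or sexes. It was lowest in ML2 (2.43%) and highest in FR3 (4.34%), and the count of members per pool ran from 41 to 189. Left pools had 3.29 ± 0.587% (SD, n = 6) and right pools 3.46 ± 0.447%, a difference of 0.172 points that the exact two-sided permutation test did not call (p = 0.615, adjusted 0.615). Male-labelled pools had 3.25 ± 0.409% and female-labelled pools 3.50 ± 0.598%, a difference of 0.251 points (exact permutation p = 0.44, adjusted 0.615). Both pairs of groups overlapped. Sexes and sides were permuted within each other, which gave 400 relabellings and a smallest p of 0.005.

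Depth differed between the pools compared. Neurons of male-labelled pools had a median of 2729 ± 459 UMIs and those of female-labelled pools 3517 ± 415 (exact permutation p = 0.015, adjusted 0.03), and left pools had 3350 ± 591 against 2896 ± 532 in right pools (p = 0.08, exact permutation). At 2000 UMIs per nucleus the share was 0.522 points higher on the right (p = 0.15) and 0.317 points lower in female-labelled pools (p = 0.32, both exact permutation). Without the exclusion of Ntsr1 and Cyp26b1 the right pools were 0.176 points lower. Without FR3 the side difference was -0.00437 points, and without ML2 it was 0.000907. None of these differences passed the test, and the part of depth was not tested. In 2 neuron clusters with 633 nuclei and 49 members the leading genes were glial or muscle genes, and without them the side difference was 0.184 points.

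**Figure D4:**
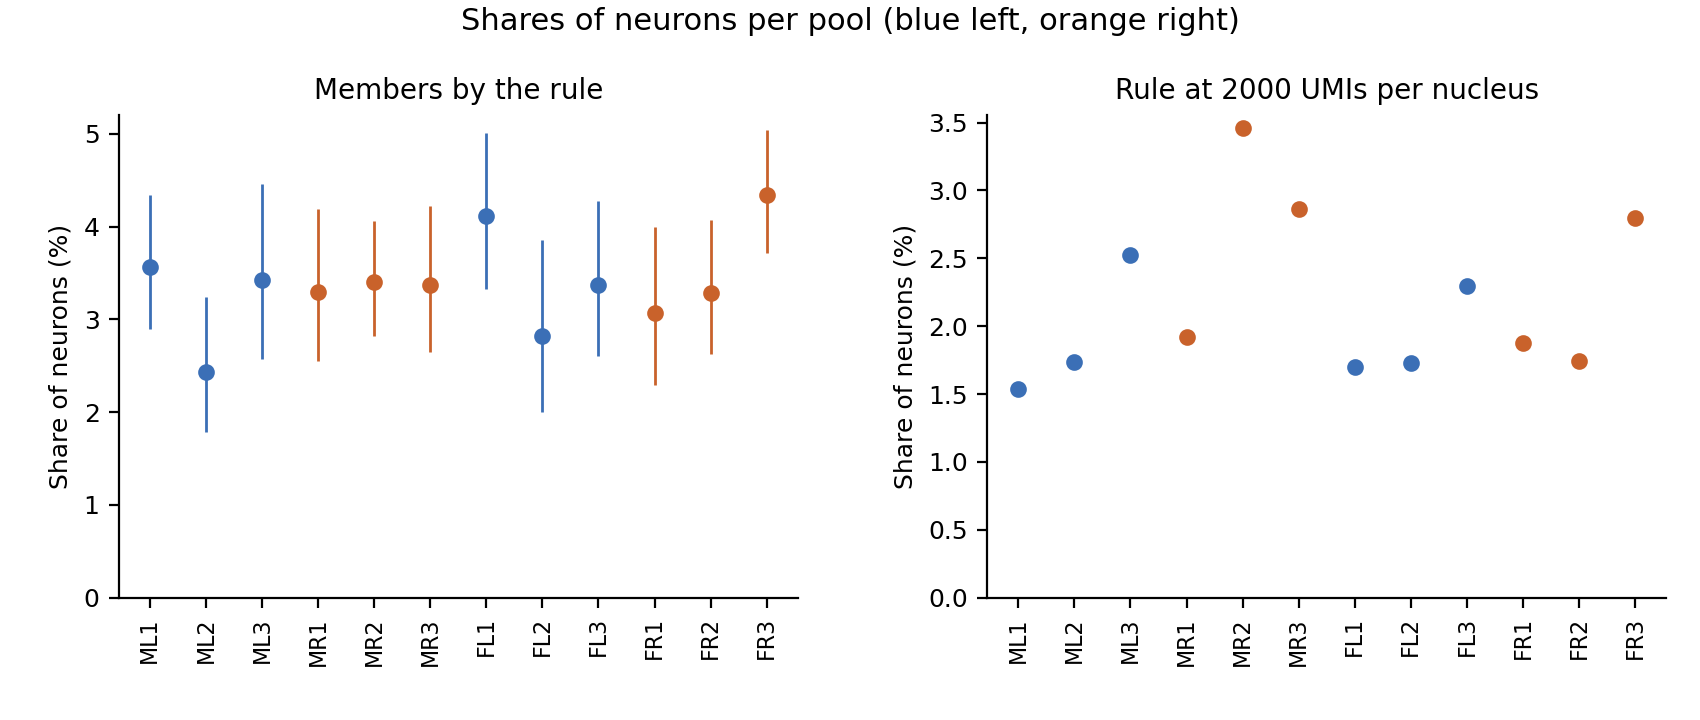
Share of neurons that are members in each of 12 pools, by the rule on all UMIs (left panel; lines, exact 95% intervals) and at 2000 UMIs per nucleus (right panel). ML2 has the lowest share by the rule, 2.43%, and FR3 the highest, 4.34%; left (blue) and right (orange) pools overlap in both panels.

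No gene of the members passed the test between sides or sexes. UMIs of the members were summed per pool and tested with edgeR's quasi-likelihood F test over 7738 genes. It called 0 genes by side (0.0%), 0 by labelled sex (0.0%) and 0 for the interaction of both (0.0%) at an adjusted p under 0.05, where 481, 471 and 480 genes had an unadjusted p under 0.05. DESeq2 called 0 in each. The smallest p by side belonged to Grik1, a kainate receptor subunit, at 872, 1023 and 1256 CPM (lowest, median, highest) in left pools and 686, 774 and 892 in right pools, with a log2 fold change of -0.46 (SE 0.0957, edgeR adjusted p = 0.278). Those ranges overlapped. Without ML3 the side test called 18 genes, and without FL1 the test by sex called 4.

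Satellite glia clusters held 6.69 ± 4.63% of members on the left and 12.5 ± 3.26% on the right (exact permutation p = 0.03, adjusted 0.06). The summed satellite glia markers in members ran from 258 to 610 CPM in left pools and from 472 to 733 in right pools. Their part in the results of the members was not tested. In a model of members and remaining neurons together, 2 of 13408 genes (0.0149%) had a side difference that differed between them by edgeR: Slit2 (-0.82, SE 0.151, adjusted p = 0.0264) and Piezo2 (-0.65, SE 0.122, adjusted p = 0.0264). Piezo2 stood at 157, 379 and 509 CPM (lowest, median, highest) in members on the left and 150, 216 and 337 on the right. Neither was called without ML1 and FL1, and leaving out 1 pool moved the count between 0 and 33.

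Cluster A, picked for holding the most members, was tested whole, without applying the rule to its nuclei. This test was added after the clusters were seen. Cluster A held 3.94 to 7.79% of neurons in left pools and 3.77 to 7.44% in right pools, ranges that overlapped and were not tested. UMIs of its nuclei were summed per pool. In such sums, fewer nuclei with a transcript and fewer transcripts per nucleus cannot be told apart. By edgeR 72 of 6108 genes (1.18%) changed between sides in the 1648 nuclei, 35 higher and 37 lower on the right. Gria1, an AMPA receptor subunit, stood at 114, 140 and 173 CPM (lowest, median, highest) on the left and 42.2, 55.9 and 73.7 on the right, with no overlap (-1.38, SE 0.147, adjusted p = 5.55e-09). Grik4, a kainate receptor subunit, stood at 143, 158 and 182 on the left and 57.4, 77.6 and 90.5 on the right (-1.04, SE 0.127). Opcml, a cell adhesion molecule, fell by 0.80, Pde10a, a cyclic nucleotide phosphodiesterase, by 0.88, and Cacnb2, a calcium channel beta subunit, by 0.79, each without overlap of left and right pools. Bmper, which binds bone morphogenetic proteins, fell by 1.19 with ranges that overlapped (104 to 238 CPM left, 53.3 to 117 right).

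Among the 10 genes of smallest p, 2 rose on the right. Kcnq3, a potassium channel that limits firing, had 128, 161 and 237 CPM in left pools and 258, 302 and 418 in right pools (log2 fold change 0.77, SE 0.110). Gpc5, a heparan sulfate proteoglycan, had 173, 254 and 289 CPM in left pools and 331, 455 and 579 in right pools (0.75, SE 0.0997). Neither gene's ranges overlapped. The change of Kcnq3 did not pass in members of cluster A alone (0.25, edgeR adjusted p = 0.908) or in cluster B (0.37, adjusted p = 0.479). That of Pde10a did not pass in them either (-0.95, edgeR adjusted p = 0.0629, and -0.43, adjusted p = 0.140). Of the lists of receptors and channels above, Scn3a rose and Tafa4 fell on the right, and 2 acid-sensing channels, 7 integrin genes, 5 Kcnh genes, 4 mechanosensitive channels and 2 purinergic receptors were tested without a call. Chrm2, 1 nicotinic subunit and Gpr65 were the only receptors of their lists with enough counts to be tested.

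**Figure D5:**
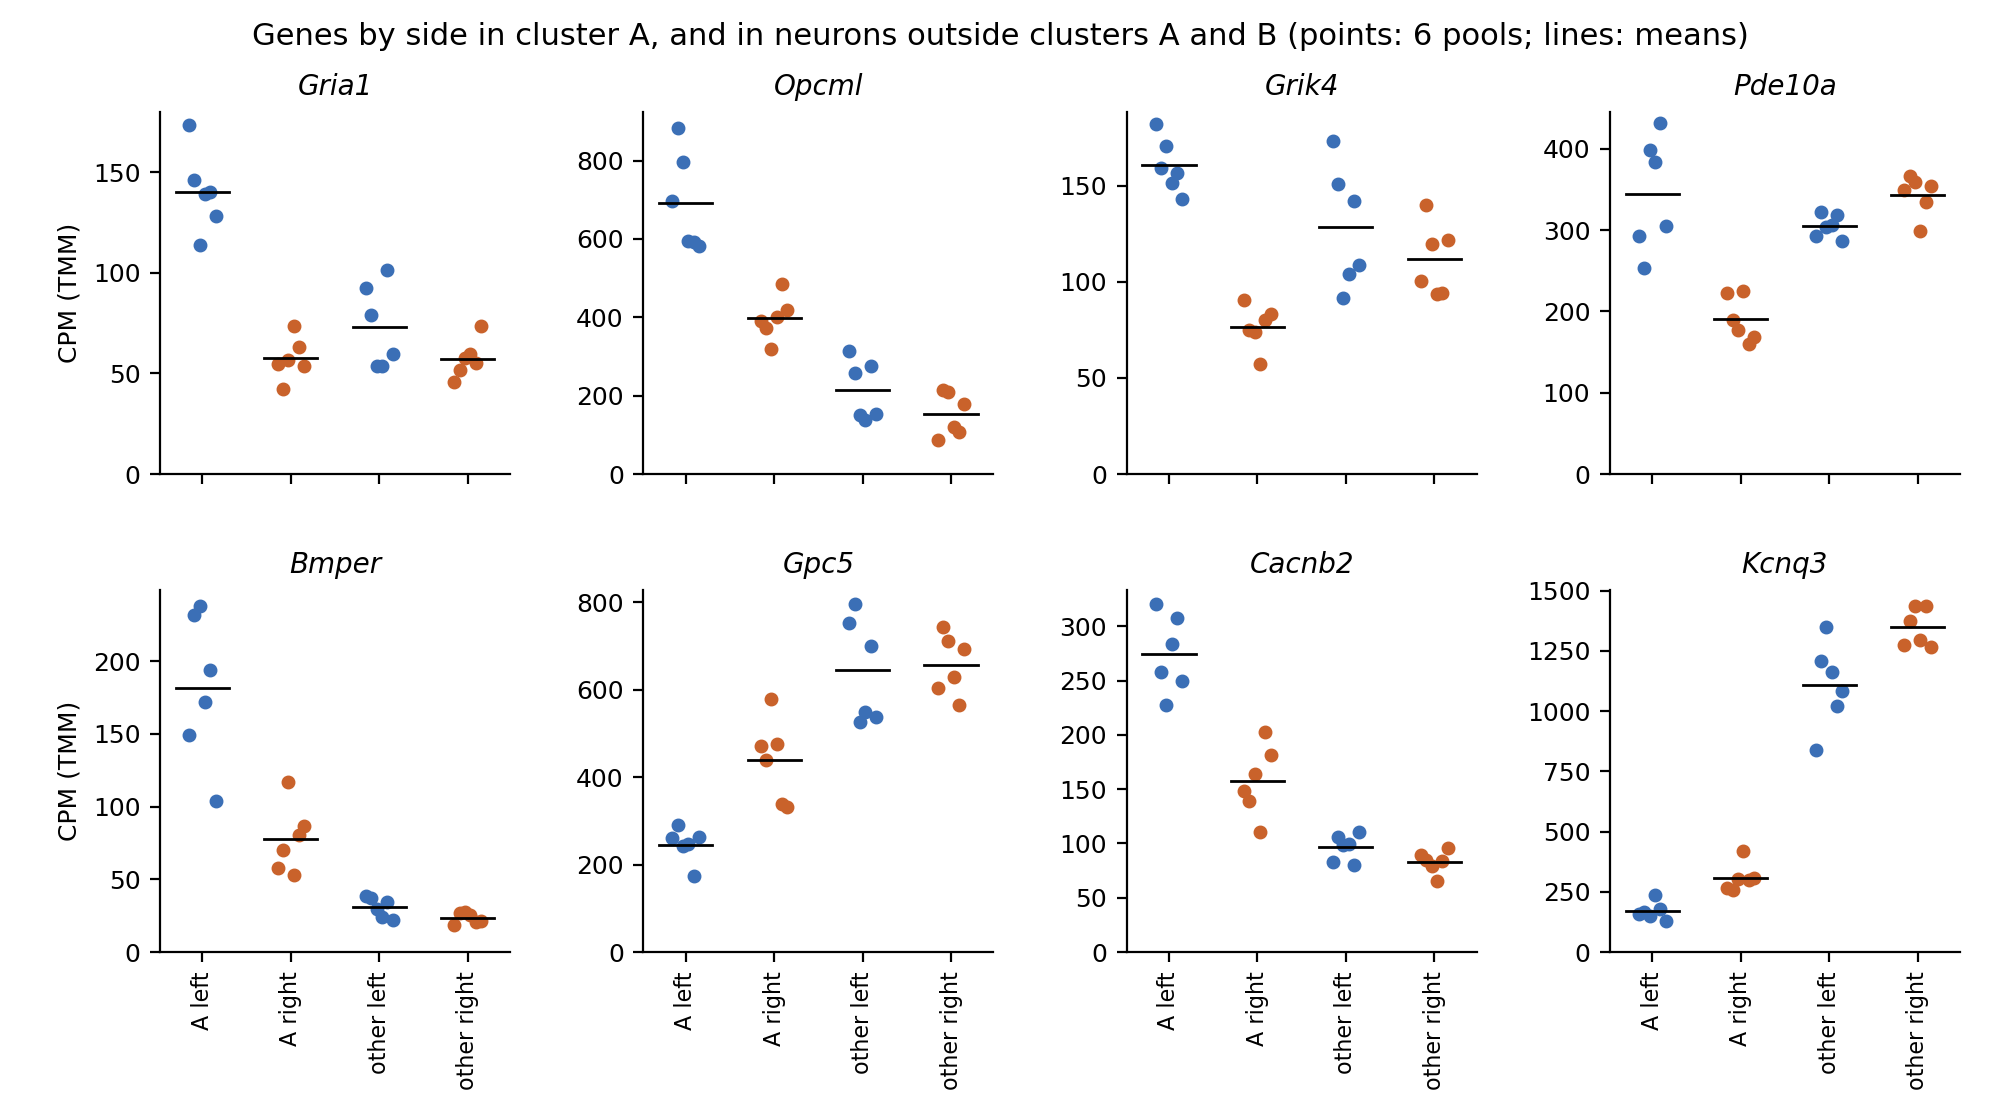
Level of 8 genes called by side in cluster A, as TMM-normalised CPM per pool (points, 6 pools a side; lines, means), in cluster A and in neurons outside clusters A and B. Gria1 runs from 114 to 173 in the left pools of cluster A and from 42.2 to 73.7 in the right pools, and left and right pools of the other neurons overlap for all 8 genes.

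The same test was run in other sets of nuclei, which overlap and are not independent. In the nuclei of cluster A that the rule left out it called 60 of 5256 genes (1.14%), 50 of them among the 72, and 71 of the 71 that could be tested kept their direction. In cluster B 59 of 7822 genes (0.754%) were called, 35 of them among the 72. The members within cluster A alone gave 9 of 2645 (0.34%), with 61 of 61 in the same direction, and all members gave 0 of the 72, with 62 in the same direction. DESeq2 called 58 genes and 54 of the 72. Without ML1 and FL1 the count was 44, and without MR2 it was 46. Members in both clusters gave 16 of 4373 genes (0.366%), and all nuclei of both clusters 107 of 9260 (1.16%). The pools of cluster A were not shown to differ in depth by side (2923 ± 589 UMIs left, 2727 ± 475 right, exact permutation p = 0.475), and the 6 satellite glia markers summed to 68.2 CPM in left and 70.3 in right pools.

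The side difference of cluster A was then tested against that of other neurons. In a model of cluster A and the neurons outside both clusters, 58 of 12813 genes (0.453%) had a side difference that differed between them by edgeR, and 38 of these were among the 72. Pde10a had the smallest p (-1.05, SE 0.103, adjusted p = 6.24e-20), and its level in other neurons was 286 to 323 CPM in left pools and 298 to 366 in right pools. Gria1 differed by -1.11 (SE 0.158), Grik4 by -0.89 (SE 0.140), Gpc5 by 0.71 (SE 0.0958) and Thsd7b by -0.70 (SE 0.122). DESeq2 called 32 genes, and the count was 27 without ML1 and 24 without ML1 and FL1. Because the clusters were drawn from the same genes, the effect of side on which nuclei joined cluster A cannot be told apart from a change within it.

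Clusters A and B were picked for holding the most members, and so by the rule's genes. This limits the tests of those genes by side or sex in them. Chrm2 itself was higher on the right in cluster B. There it stood at 88.5, 184 and 243 CPM (lowest, median, highest) on the left and 246, 272 and 311 on the right, without overlap (0.61, SE 0.110, edgeR adjusted p = 0.00120). In cluster A the values were 222, 321 and 344 on the left and 326, 368 and 454 on the right, which overlapped, and the change did not pass (0.31, SE 0.0949, edgeR adjusted p = 0.104). The change passed with the replicate block, which joins left and right pools of the same sex label and number (0.34, edgeR adjusted p = 0.0251). It also passed without FL1 (0.39, edgeR adjusted p = 0.0297). The block joins ML1 to MR1 and FL1 to FR1, whose Y-linked counts disagree. Its side difference in cluster A differed from that of other neurons (0.40, SE 0.106, edgeR adjusted p = 0.0336), but not by DESeq2 (adjusted p = 0.73) nor with RLE size factors (0.0652), without a filter on low counts (0.0603), without ML1 and FL1 (0.739), or without ML1 (0.835), MR1 (0.294), MR3 (0.134), FL2 (0.478) or FR2 (0.106). Cyp26b1, whose absence the rule required, ran the other way in cluster B, at 89.5, 107 and 123 CPM in left pools and 33.3, 70.1 and 78.3 in right pools (-0.68, SE 0.138, edgeR adjusted p = 0.00431). Itgae, Gpr65 and Kcnh8 did not pass by side in either cluster. In the members, chosen for Chrm2, its side difference was -0.05 (SE 0.0990).

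By labelled sex, 3 of 6108 genes (0.0491%) were called in cluster A and 2 (0.0327%) for the interaction of sex and side. Those by sex were Col6a5, AABR07040864.1 and Thsd7a, all lower in female-labelled pools, and DESeq2 called 0 of either kind. Itgae stood at 405, 470 and 615 CPM (lowest, median, highest) in male-labelled pools of cluster A and 253, 326 and 473 in female-labelled ones, which overlapped (-0.42, SE 0.0991, edgeR adjusted p = 0.0827). Without ML1 and FL1, whose Y-linked counts go against their labels, the difference of Itgae passed (-0.58, SE 0.102, edgeR adjusted p = 0.000270), and 21 genes were called. In cluster B the same difference was -0.25 (edgeR adjusted p = 0.352).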

How the data were processed

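The deposited files hold raw UMI counts per nucleus and gene for 12 pools in 8 sublibraries, made with Evercode nuclei kits per the labels' protocols, and the authors had applied no normalisation to these counts. The submitters' processing notes name the genome build mRatBN7.2, R 4.3.2 and Seurat 4.1.3, and the aligner is not given in the sources used here. Pools hold 7139364 to 19456287 UMIs and 1738 to 4849 nuclei. The filter asked for 300 genes or more per nucleus and for mitochondrial UMIs of 5% or less, and no doublet caller was run. The members and all gene lists were chosen with earlier results of these data known.

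Clustering used scanpy 1.11.5, leidenalg 0.10.2, 3000 variable genes and resolution 1 for all nuclei, and 2000 genes without the rule's and resolution 2 for neurons. Cell classes were rebuilt here from marker lists. CPM are UMIs summed per pool over the sum of all genes, and differences use log2(CPM + 5) for genes at 5 CPM or more. edgeR 4.0.16 (TMM, filterByExpr, side plus labelled sex, Benjamini-Hochberg over all genes tested) gave the adjusted p-values, with DESeq2 1.42.0 as an alternative. The pool is the replicate, and p-values measure the spread between pools. On simulated counts of 7833 genes the side test in members recovered 71% of 2-fold and 97% of 4-fold changes, with 8 false calls of 176. The simulation gave every gene the same fixed spread, not estimated from these pools. Apart from the changed genes, all pools had the same mean profile. Recovery in the real members, whose pools differ in glial markers, is not known from it. Named genes were the rule's genes and Kcnh8, the 20 highest and 10 lowest genes with a unique symbol by level, the 4 most different genes of each list, and the 10 called genes of smallest p in each test. The highest and lowest were taken among genes at 10 CPM or more in every pool of the higher group. Other names were chosen after their values were seen. Shares of members were tested per pool by exact permutation. Alternatives covered depth, the rule, filters, normalisation, tools and single pools. Results for some genes are not reported here.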

Additional observations from a re-analysis of the deposited data

Results flagged for a closer look

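Among 152 series of 6 pools checked, 10 had a pool whose gap to the nearest other pool was large for the range (Dixon's 95% limit). Chance flags about 1 in 20 such groups. The share of neurons that were members was 4.34% in FR3, with 3.06 to 3.40% in the other right pools, and 2.43% in ML2, with 3.30 to 3.57% in the other male-labelled pools. Chrm2 in cluster A stood at 222 CPM in FL2, below 326 to 366 in the other female-labelled pools, and Gpr65 in members at 167 CPM in FL3. Ntsr1 in cluster A stood at 65.4 CPM in MR3. Cyp26b1 there stood at 71.3 CPM in ML2, apart from both the other left and the other male-labelled pools. Kcnh8 in cluster A stood at 999.9 CPM in FR2, below 1220 to 1274 in the other female-labelled pools. Htr3a there stood at 224 CPM in FL1 and Kcnq3 at 418 CPM in FR1.

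Side differences that differed from those of other neurons, by edgeR's test of the difference itself, were -0.82 for Slit2 and -0.65 for Piezo2 in members (log2). In cluster A they were -1.05 for Pde10a, 0.75 for Zfp804b, 0.74 for Ano3, 0.71 for Gpc5, -1.11 for Gria1, -0.89 for Grik4, 0.67 for Gdpd4, -0.70 for Thsd7b, 0.40 for Col6a5, -0.39 for Hdac9 and 0.40 for Chrm2. Ano3 was not called by DESeq2 (adjusted p = 0.525). Hdac9 was not called by edgeR without ML1 (adjusted p = 0.0508) or without ML1 and FL1 (adjusted p = 0.0696). Chrm2, a gene of the rule, was not called in any of 4 other settings (edgeR or DESeq2 adjusted p 0.0603 to 0.739). It also was not called in 5 of the 12 runs that left out 1 pool. For the interaction of sex and side in cluster A they were 5.35 for ENSRNOG00000065796 and -5.14 for ENSRNOG00000060617. The former was 1.77 without ML1 and 0.68 without ML1 and FL1, and it was not called in those settings, by DESeq2, in cluster B, without MR3 or without FL1. The latter was 2.89 without FL1 and 3.57 without ML1 and FL1.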

How the results depend on the processing

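No alternative gave a share of members that passed the test, and the cause of the changes below was not tested. The side difference of the share was -0.176 points without the Ntsr1 and Cyp26b1 exclusion and ran from -0.00437 (without FR3) to 0.336 when 1 pool was left out; the sex difference at 2000 UMIs was -0.317. Counts of genes that passed changed as follows. In members by side, 51 passed with no filter on low counts, 1 in neuron clusters only, 1 without the 5% deepest nuclei, 1 with the replicate block, 1 without ML1 and FL1, and 0 to 18 when 1 pool was left out (18 without ML3). By sex, 46 passed with no filter, 1 without the exclusion, 7 without ML1 and FL1, and 0 to 4 when 1 pool was left out (4 without FL1, 1 without ML1, 1 without FR3). For the interaction, 36 passed with no filter, 2 without the deepest nuclei, and 0 to 2 when 1 pool was left out (2 without MR1). For members against other neurons, 7 passed by DESeq2, 38 with no filter, 0 against Ntsr1 Cyp26b1 neurons, 0 without ML1 and FL1, and 0 to 33 when 1 pool was left out (33 without ML3 or MR2, 5 without FR1, 4 without FL3 or FR2, 1 without FL1 or FL2, 0 without ML1, MR1 or MR3).

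All settings of cluster A, and those of members in clusters A and B, were chosen after seeing the data. Members in both clusters gave 16 genes by side and 1 by sex, and all nuclei of both clusters 107 and 4, where Grik1 was 0.012 by side. In cluster A by side, 9 passed in members only, 44 without ML1 and FL1, and 46 to 77 when 1 pool was left out (46 without MR2). By sex, 0 passed by DESeq2, 21 with no filter, 8 without the deepest nuclei, 6 in non-members, 10 in cluster B, 21 without ML1 and FL1, and 0 to 19 when 1 pool was left out (19 without ML1, 18 FL1, 5 FR1, 1 MR3, 0 ML2, MR2 or FL3). For the interaction, 0 passed by DESeq2, 7 with no filter, 0 in members only, 0 in cluster B, 0 without ML1 and FL1, and 0 to 4 when 1 pool was left out (4 without FL3, 1 FR3, 0 MR3 or FL1), with ENSRNOG00000060617 at 3.57 without ML1 and FL1 and -5.86 to 2.89 when 1 pool was left out. For cluster A against other neurons, 32 passed by DESeq2, 24 without ML1 and FL1, and 27 to 61 when 1 pool was left out (27 without ML1).

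Genes higher in members numbered 40 at a pseudocount of 1 CPM and 4 at 20, and 9 to 23 when 1 pool was left out (9 without FR1). Genes lower numbered 56 and 11 at these pseudocounts, 138 by the stricter rule, 85 in thinned nuclei and 91 without the deepest nuclei. Members with a UMI of Kcnh8 were 46.3% at 1000 UMIs and 81.9% unthinned, of Itgae 25.0% and 68.8%, of Gpr65 16.6% and 54.3%, and of both Itgae and Gpr65 23.1% unthinned. Deviations of left and right pools of the same number correlated at -0.017 to 0.079 in members and -0.022 to 0.048 in cluster A, none over 0.1, so the numbers were not used as pairs. The same number gave the best partner of 2 of 6 left pools in members and of 4 of 6 in cluster A. With the replicate block 102 genes passed by side in cluster A, among them 71 of the 72, and Chrm2 passed at 0.34 (edgeR adjusted p = 0.0251). The block and these correlations join ML1 to MR1 (Y-linked sums 3.81 and 79.7 CPM in members) and FL1 to FR1 (83.1 and 1.88). Those pools thus differ in their Y-linked counts, which limits both. Members per pool (41 to 189) and single UMIs of the rule's genes limit precision.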
